A study of Mus musculus with 4 samples.

Results

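The genes described here are those of the machinery that releases synaptic vesicles, followed through the neurons of the mouse hippocampus after repeated social defeat (RSD). They were taken from a fixed list of gene names: 15 synaptotagmins and Doc2 proteins, the family of calcium sensors of which some members do not bind calcium, 7 SNARE proteins and their partners, 5 priming proteins, 9 scaffold proteins of the active zone, 3 complexins and 6 proteins of the vesicle membrane, which make 45 of the 56748 genes in the files, and all 45 were found once. Single-nuclei RNA was counted in 8 pools, each made from the hippocampi of 3 male mice, with nuclei taken 14 h after RSD or from undisturbed control mice. In a diet experiment, C57BL/6 mice (bought at 5 to 7 weeks) ate chow with vehicle or with PLX5622, a CSF1R antagonist that depletes microglia, which gave the pools Control-Vehicle, RSD-Vehicle, Control-PLX5622 and RSD-PLX5622. In a genotype experiment, mice bred in-house were IL-1R1+/+ without Cre (WT) or Vglut2+/IL-1R1-/- (KO), which lack Il1r1 in glutamatergic neurons and cells descended from them because the Vglut2 (Slc17a6) promoter drives Cre. These mice gave Control-WT, RSD-WT, Control-KO and RSD-KO. The age of the bred mice is not given in the sources used here. Each condition was 1 pool, so the pool was the unit of every test, and the 4 pairs of a control and an RSD pool of the same diet or genotype served as blocks.

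Release begins when vesicles dock at the active zone, a protein mesh built by Bassoon, Piccolo, RIM, RIM-binding, ELKS and liprin-alpha proteins. Munc13 and CAPS proteins (Unc13 and Cadps genes) prime the vesicle by helping the SNARE proteins Snap25, syntaxin and VAMP to zip together, complexins hold the complex ready, and calcium binding to a synaptotagmin triggers fusion. Synapsins tether the reserve of vesicles, and SV2 proteins sit in the vesicle membrane. Most of these proteins come in several versions, and hippocampal granule cells, pyramidal cells and interneurons are known to use different ones.

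The sequences below are the 250 bases before the annotated start of 7 of these genes (GRCm39, GENCODE vM39, 5′ to 3′ on the gene's own strand). Unc13a, Syt7 and Syn2 are shown because they had the 3 smallest unadjusted p of all members for RSD in both CA1- and CA2/3-like nuclei. Sv2b, Sv2c, Syt2 and Syt10 are shown because their median RNA level differed between neuron classes. Capitals mark TGACG on either strand, the short binding site of CREB, the transcription factor whose phosphorylated form the study stained as a readout of neuronal activity. The start used is that of the transcript tagged as canonical in the annotation. For the 7 genes shown it is also the outermost annotated start, so their other start sites are outside the windows.
Unc13a (minus strand, chr8:72124686-72124935): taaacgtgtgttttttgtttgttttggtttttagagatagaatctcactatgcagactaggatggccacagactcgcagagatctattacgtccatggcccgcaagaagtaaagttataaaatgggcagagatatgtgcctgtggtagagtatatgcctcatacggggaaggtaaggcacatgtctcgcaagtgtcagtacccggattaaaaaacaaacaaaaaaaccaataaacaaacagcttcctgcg
Syt7 (plus strand, chr19:10365783-10366032): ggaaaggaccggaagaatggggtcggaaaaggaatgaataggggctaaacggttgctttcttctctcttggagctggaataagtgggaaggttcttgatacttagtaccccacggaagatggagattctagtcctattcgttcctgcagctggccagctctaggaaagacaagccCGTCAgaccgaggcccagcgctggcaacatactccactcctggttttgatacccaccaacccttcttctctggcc
Syn2 (plus strand, chr6:115111575-115111824): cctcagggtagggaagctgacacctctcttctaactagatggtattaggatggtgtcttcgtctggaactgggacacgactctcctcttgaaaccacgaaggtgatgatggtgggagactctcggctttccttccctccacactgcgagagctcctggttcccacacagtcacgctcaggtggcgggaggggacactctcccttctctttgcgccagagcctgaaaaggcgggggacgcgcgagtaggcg
Sv2b (minus strand, chr7:74959132-74959381): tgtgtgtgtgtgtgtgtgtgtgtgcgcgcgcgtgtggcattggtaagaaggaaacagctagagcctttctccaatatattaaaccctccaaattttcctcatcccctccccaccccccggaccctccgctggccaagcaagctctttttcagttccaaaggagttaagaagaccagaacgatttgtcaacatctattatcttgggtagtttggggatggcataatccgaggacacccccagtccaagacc
Sv2c (minus strand, chr13:96269086-96269335): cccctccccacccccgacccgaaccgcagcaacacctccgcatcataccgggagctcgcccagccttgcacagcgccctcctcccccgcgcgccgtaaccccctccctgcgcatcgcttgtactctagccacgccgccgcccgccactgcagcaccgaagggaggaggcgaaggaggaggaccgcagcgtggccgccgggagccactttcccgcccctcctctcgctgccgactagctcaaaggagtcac
Syt2 (plus strand, chr1:134574040-134574289): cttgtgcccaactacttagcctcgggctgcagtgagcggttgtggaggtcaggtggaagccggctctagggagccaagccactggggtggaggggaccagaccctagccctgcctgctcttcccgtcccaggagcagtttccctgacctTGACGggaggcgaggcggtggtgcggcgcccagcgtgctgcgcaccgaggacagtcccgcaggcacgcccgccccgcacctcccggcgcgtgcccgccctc
Syt10 (minus strand, chr15:89726173-89726422): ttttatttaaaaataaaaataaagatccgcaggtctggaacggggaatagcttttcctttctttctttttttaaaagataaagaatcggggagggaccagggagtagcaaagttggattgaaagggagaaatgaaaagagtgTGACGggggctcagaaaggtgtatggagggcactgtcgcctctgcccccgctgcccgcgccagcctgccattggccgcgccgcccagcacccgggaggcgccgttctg
The short site was present in the windows of 8 members (Doc2b, Stx1a, Syt10, Syt2, Syt4, Syt5, Syt7 and Vamp1) of 45, and in 18% of the 21630 windows of protein-coding genes. The full palindrome TGACGTCA, which contains the short site, was in no member's window and in 1.69% of all windows. The E-box CACGTG was in the windows of Cplx3, Nsf and Unc13b, and in 6.29% of all. A match of letters is a description of the window and not evidence of binding.

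Nuclei were placed in classes by marker genes, none of them a member. After 516 nuclei with over 20% mitochondrial counts of unique transcripts (UMIs) were left out, 56834 of 57350 remained, and 50046 were neuronal. Levels are given in CPM, the UMIs of a gene summed over the nuclei of a class in a pool and scaled to a common total. Classes are called dentate gyrus granule (DG-like, 10550 nuclei), CA1-like (8504), CA2/3-like (5177) and inhibitory (INH-like, 5933, with Lhx6-lineage, Adarb2-lineage and Egfr-led subsets), and 4 smaller classes were kept for levels only. Another 13230 neuronal nuclei, in 10 of 27 clusters, were left without a class. They include clusters of 2093, 746 and 629 nuclei whose best match was CA1. The PLX5622 pools were the shallowest, with median UMIs per nucleus of 598 and 628 against 1325.5 to 5012 in the other 6, and summed UMIs of a tested class and pool ran from 703192 to 10288811. In KO pools, Il1r1 was at 11.2 and 9.06 CPM in DG-like nuclei of control and RSD mice, against 61.8 and 29.6 in WT pools and 59.1 to 86.0 in the 4 pools of the diet experiment. Markers of other classes were at 1321 to 1638 CPM in DG-like pools, beside 1706 to 2128 CPM of their own markers, and those of CA1 and CA2/3 made up 1141 to 1393 of this, with astrocyte markers at 716 to 998. Nuclei called INH-like had 1211 to 1553 CPM of other classes' markers. For CA1- and CA2/3-like nuclei only DG and inhibitory markers were counted this way, at most 385 CPM. CA1 and CA2/3 markers together were at 1157 to 1425 CPM in CA1-like pools, beside 642 to 1026 of their own. In CA2/3-like pools they were at 3184 to 4177 CPM, beside 3102 to 4056 of their own. Slc4a4, counted here as an astrocyte marker, was among the 10 top genes of a DG-like cluster over the other neuronal clusters. Whether these counts come from mixing or from the nuclei themselves was not tested. Their part in the values below was not tested either. Microglia-like nuclei numbered 8 and 10 in the PLX5622 pools and 154 to 200 in each of the others.

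RNA of these genes was also counted in glia-like nuclei, so levels there are given beside those of neurons. The source of the counts in glia-like nuclei was not tested. Syt1, the main calcium sensor of fast release, was at a median of 2361 to 3335 CPM over pools in the 4 main neuron classes, and at 647 CPM in oligodendrocyte-like, 1485 in astrocyte-like and 2390 in microglia-like nuclei. Snap25 was at 345 to 525 CPM in the neuron classes and at 94.8 in oligodendrocyte-like, 210 in astrocyte-like, 299 in oligodendrocyte precursor-like and 372 in microglia-like nuclei. Unc13a was at 357 to 466 CPM against 122 in oligodendrocyte-like, 265 in astrocyte-like and 347 in microglia-like nuclei. These 3 genes, shared by nearly all synapses, therefore varied little between neuron classes, and microglia-like nuclei reached the level of some of them.

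Of the 45 members, 19 had a median level at least 4 times as high in the highest neuron class as in the lowest, with at least 20 CPM in the highest. They were spread over all 6 roles, with 9 of 15 synaptotagmin and Doc2 genes, 1 of 7 SNARE proteins and partners, 3 of 5 priming proteins, 2 of 9 scaffold proteins, 1 of 3 complexins and 3 of 6 vesicle proteins. The remaining 26 include Syt1, Erc2, Cadps, Rims1 and Pclo, whose medians lay within 4 times of each other across the 8 neuron classes. The rule takes in sparse classes. Medium spiny-like nuclei counted in 1 pool, Cajal-Retzius-like nuclei numbered 214 in all, and Slc17a6 excitatory nuclei numbered 21 to 1586 per pool. Ppfia2 and Unc13b passed only against medium spiny-like nuclei (507.6 and 53.6 CPM), and Syt3 only against Cajal-Retzius-like nuclei (13.6 CPM, from 9 UMIs). Cplx2 passed only against Slc17a6 excitatory nuclei (54.1 CPM). Member genes were left out of the genes used for clustering. The classes are still defined by expression, so differences of level between them are a description and were not tested. Cplx3 and Doc2a were near 0 in each of the 8 neuron classes, with medians of at most 2.66 CPM. Within the Adarb2-lineage subset Doc2a was at 0 to 7.46 CPM.

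**Figure D1:**
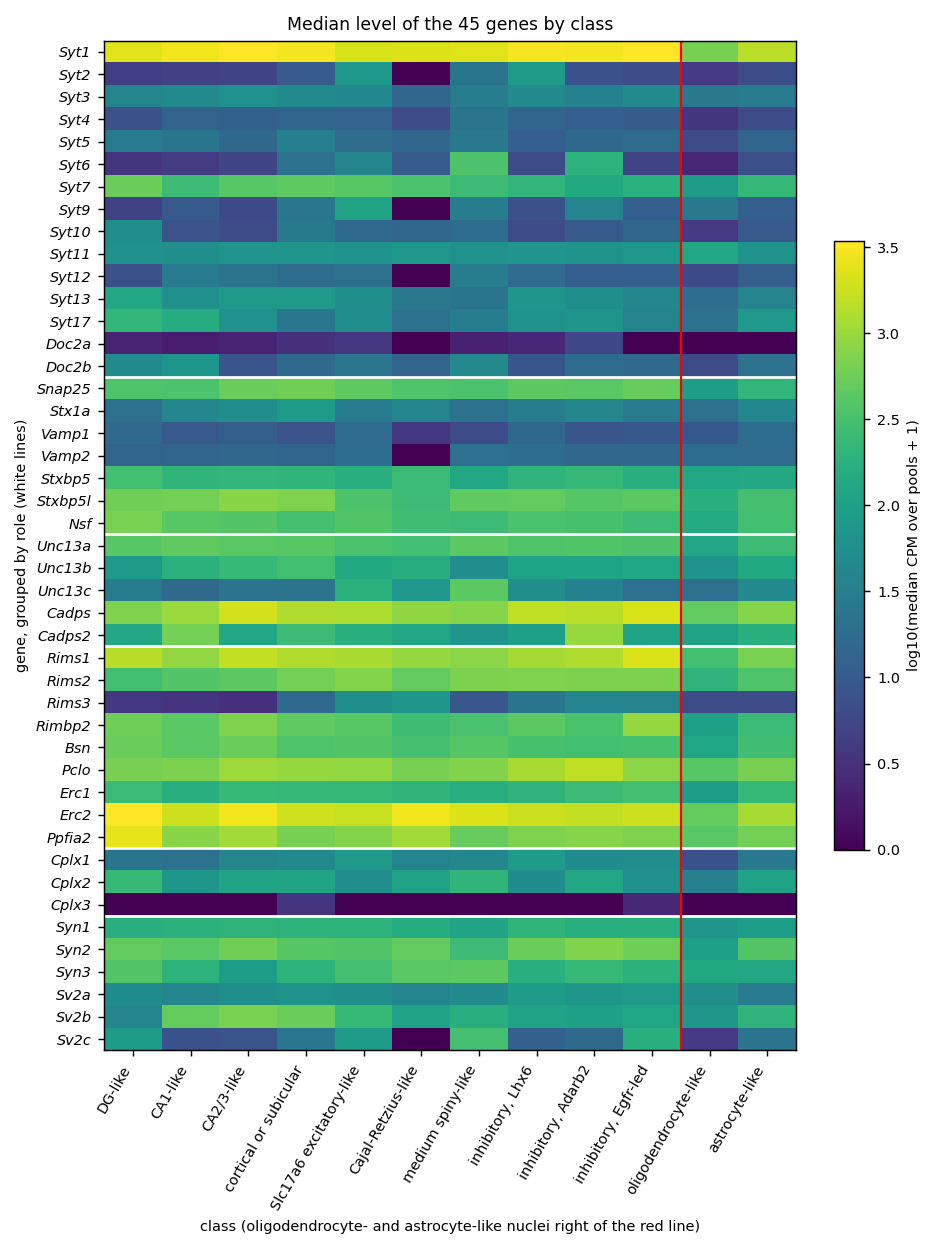
Median level over pools, as log10(CPM + 1), of the 45 genes (rows, grouped by role) by class (columns). Inhibitory nuclei are drawn as their Lhx6-lineage, Adarb2-lineage and Egfr-led subsets beside the other neuron classes. Oligodendrocyte- and astrocyte-like nuclei are right of the red line. Colours are to be read along a row, since CPM is not corrected for gene length. Syt1, Erc2 and Cadps are bright across all neuron columns, while Sv2b, Sv2c, Syt2, Syt6, Syt10 and Unc13c change from column to column.

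The SV2 family divided the hippocampus. Sv2b was at 312 to 575 CPM in CA1-like nuclei (median 496) and 363 to 742 in CA2/3-like nuclei (median 671). In DG-like nuclei it was at 34.9 to 96.8 CPM (median 39.6), the lowest of any neuron class. INH-like nuclei were between, at 72.1 to 179 CPM (median 99.2), and astrocyte-like nuclei were at a median of 196 CPM. Sv2c, known from basal ganglia, had the reverse order: 64.2 to 105 CPM in DG-like nuclei (median 86.6) against medians of 6.77 and 7.23 in CA1- and CA2/3-like nuclei, with no overlap between pools. It was higher still in the Egfr-led interneurons (91.6 to 301 CPM, median 176) and in medium spiny-like nuclei (303 CPM in the single pool with enough of them). Sv2a, the version found at most synapses, varied little, from a median of 41.7 CPM in CA1-like to 82.4 in INH-like nuclei. Among the synapsins, Syn3 stood apart, with a median of 373 CPM in DG-like, 190 in CA1-like and 91.8 in CA2/3-like nuclei, and every DG-like pool (282 CPM or more) was above every CA2/3-like pool (104 or less).

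Synaptotagmin and Doc2 genes also differed by class. Syt2, the fast sensor of parvalbumin interneurons and the brainstem, was at 53.9 to 99.8 CPM in Lhx6-lineage interneurons (median 83.4). Slc17a6 excitatory nuclei, the highest of the 8 classes, had a median of 74.4 CPM. Medians were 6.75 CPM in the Adarb2 lineage and 3.55 to 4.37 CPM in the 3 hippocampal excitatory classes, beside 6.04 CPM in astrocyte-like nuclei. The Adarb2 lineage instead held Syt6, at 139 to 277 CPM (median 190), where the Lhx6 lineage had a median of 5.52 CPM. Syt10 had its highest median among the neuron classes in granule cells, with 34.7 to 60.4 CPM in DG-like nuclei against medians of 5.58 to 7.3 in the other 3 main classes. DG-like pools overlapped those of other cortical or subicular excitatory nuclei (15.7 to 36.2 CPM, median 26.1). The highest Slc17a6 excitatory pool was at 68.4 CPM (median 14.9). Ependymal-like nuclei had more Syt10, 288 and 299 CPM in the 2 pools with enough of them, from 22 UMIs. Syt17 was at a median of 218 CPM in DG-like, 153 in CA1-like and 61.1 in CA2/3-like nuclei. Doc2b, a high-affinity sensor for spontaneous and delayed release, was at 48.1 to 105.7 CPM in CA1-like and 37.4 to 66.8 in DG-like nuclei, and at a median of 7.61 in CA2/3-like nuclei, below the 20.5 of astrocyte-like ones. Syt9, another fast sensor, was highest in Slc17a6 excitatory nuclei (median 116 CPM) and at 3.75 in DG-like nuclei. Syt13 was highest in DG-like (median 125 CPM) and Syt3 in CA2/3-like nuclei (60.01), while Syt12 reached only 29.7 CPM, in medium spiny-like nuclei. Syt7, the slow sensor behind delayed release and facilitation, missed the rule, with a median of 550 CPM in DG-like nuclei, 3 times the 183 CPM of INH-like nuclei.

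Among priming proteins, 3 of 5 differed by class. Cadps2, which primes dense-core vesicles, was at 335 to 699 CPM in CA1-like nuclei (median 625) and 601 to 1495 CPM in Adarb2-lineage interneurons (median 958). In CA2/3-like, DG-like and Lhx6-lineage nuclei its medians were 122, 133 and 96.7 CPM, below the 172 CPM of astrocyte-like nuclei. Unc13b was at a median of 233 CPM in CA2/3-like and 79.9 in DG-like nuclei. Unc13c, best known from the cerebellum, was at 440 CPM in medium spiny-like nuclei and a median of 185 in Slc17a6 excitatory nuclei, but at 15.4 in CA1-like nuclei.

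In the scaffold, Ppfia2 (liprin-alpha) was at 2090 to 2749 CPM in DG-like nuclei, above every other neuron class in every pool, with medians of 1102 in CA2/3-like, 798 in CA1-like and 721 in INH-like nuclei. Rims3, a short RIM protein, was at a median of 31.8 CPM in INH-like nuclei and at 1.95 to 2.8 in the hippocampal excitatory classes. Nsf, the ATPase that takes used SNARE complexes apart, was also above every other neuron class in every pool in DG-like nuclei (median 653 CPM), though within 4 times of the lowest. Cplx2 was highest in DG-like nuclei (median 234 CPM, against 72.7 in CA1-like nuclei), whereas Cplx1 was highest in Slc17a6 excitatory (77.1) and INH-like nuclei (75.1) and at 20.2 in CA1-like nuclei. Stx1a was at a median of 19.1 CPM in DG-like nuclei and 83.8 in other cortical or subicular excitatory nuclei. Vamp2, the vesicle SNARE of most synapses, gave medians of 12.8 to 15.9 CPM in the 4 main classes against 16.3 in astrocyte-like nuclei. Its median in these 4 classes was thus not above that of astrocyte-like nuclei.

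**Figure D2:**
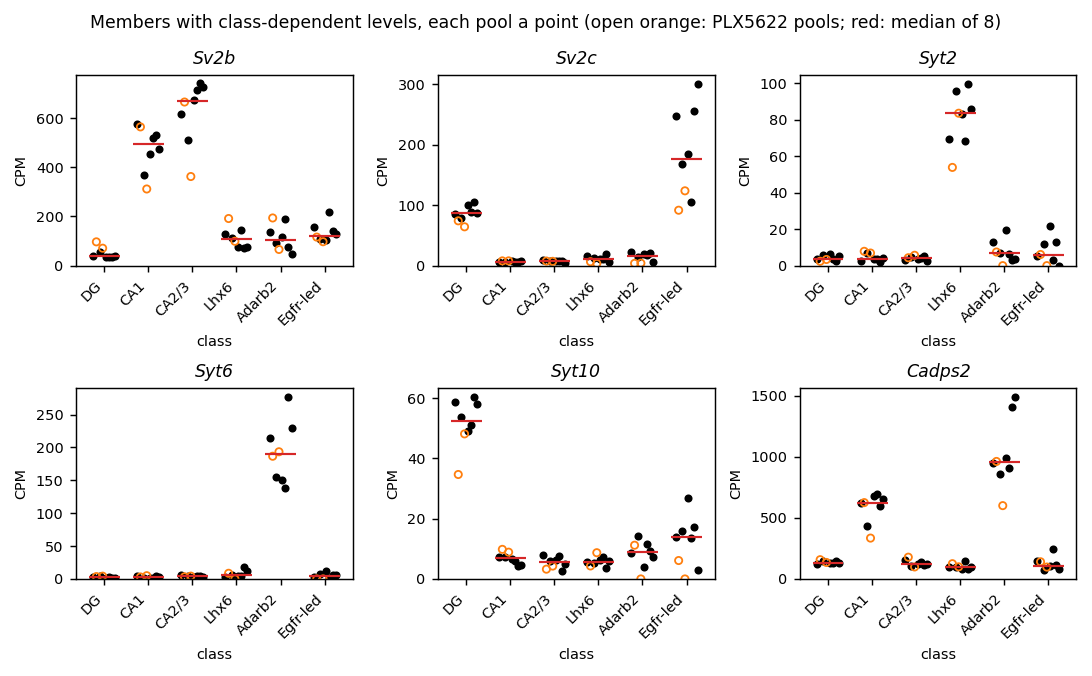
CPM of members with class-dependent levels in each of the 8 pools (points, with PLX5622 pools as open orange points and the median as a red line), by neuron class, on linear axes from 0. Sv2b pools of CA1- and CA2/3-like nuclei lie between 312 and 742 CPM, all above the 34.9 to 96.8 CPM of DG-like pools, and Sv2c has the opposite order.

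The main comparison asked whether RSD changed the release machinery. Over the 4 pairs of pools no member passed an adjusted p of 0.05 in any of the 4 classes (edgeR quasi-likelihood test with Benjamini-Hochberg adjustment over all genes of the class). The share of all tested genes that passed was 0.0597% in DG-like, 0.0433% in CA1-like, 0.101% in CA2/3-like and 0.0231% in INH-like nuclei. The test covered 43 members in each excitatory class (without Cplx3 everywhere, without Doc2a in DG- and CA1-like and without Rims3 in CA2/3-like nuclei) and 44 in INH-like nuclei. At an unadjusted p under 0.05 there were 6, 10, 12 and 6 members in the same order of classes, 14.0%, 23.3%, 27.9% and 13.6% of those tested, beside 11.6%, 15.8%, 17% and 9.14% of all genes. The median log2 fold change of the members was 0.04, -0.02, -0.12 and -0.01, against 0.00 to 0.01 over all genes. DESeq2 called 1 member, Sv2b in INH-like nuclei (adjusted p = 0.0336). Without the Control-WT or the RSD-WT pool, 6 or 5 member calls passed, and without any other single pool none did. The share of all genes passing without these pools is not given, so these counts do not set members apart from other genes.

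Members on the same side in every pair were also counted. Those higher in RSD in all 4 pairs numbered 4 of 43 in DG-like, 7 of 43 in CA1-like, 5 of 43 in CA2/3-like and 4 of 44 in INH-like nuclei. These are near the shares of all genes, 10.7%, 13.7%, 14.1% and 9.31%. Members lower in all 4 pairs numbered 7, 11, 9 and 8 of the same totals, beside 9.75%, 10.7%, 12.4% and 8.51% of all genes. Unc13a, Bsn and Pclo were on the higher side and Ppfia2 on the lower side in all 16 combinations of pair and class. The share of all genes on one side in all 16 is not given, and the 4 classes come from the same pools. The 11 genes set out next, Syt7, Syt9, Syt17, Snap25, Stxbp5, Unc13a, Cadps2, Bsn, Ppfia2, Syn2 and Sv2b, had an unadjusted p under 0.05 in at least 2 classes and were chosen after their values were seen.

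Unc13a encodes the Munc13 protein that primes vesicles at most glutamatergic synapses. In CA1-like nuclei it was at 469.4 CPM in Control-Vehicle and 856.0 in RSD-Vehicle, 346.5 and 818.3 in the PLX5622 pair, 462.7 and 522.4 in the WT pair, and 453.2 and 455.8 in the KO pair. Both diet RSD pools stood above all other pools, the WT pools were closer, and the KO pools were alike. The nuclei of a class were also spread over its clusters differently: the shallowest CA1-like cluster (median 584 UMIs) held 19.0% of CA1-like nuclei in Control-Vehicle and 62.3% in RSD-Vehicle, 75.1% and 89.5% in the PLX5622 pair, and 2.77% to 13.2% in the 4 genotype pools. One CA2/3-like cluster likewise went from 30.9% to 70.3% and one DG-like cluster from 27.4% to 53.5% between the Vehicle pools. Within the largest cluster of each class alone, Unc13a had an RSD log2 fold change of 0.39 in CA1-like (adjusted p = 0.156), 0.30 in CA2/3-like (adjusted p = 0.319) and 0.57 in DG-like nuclei (adjusted p = 0.0854). The largest DG-like cluster is itself the one that went from 27.4% to 53.5% (median 617 UMIs). The largest CA1- and CA2/3-like clusters are not the ones whose shares are given above. Over all CA1-like nuclei and pairs, the log2 fold change of Unc13a was 0.53 (SE 0.17, adjusted p = 0.139, edgeR). In CA2/3-like nuclei it went from 416.4 to 742.2 CPM in the Vehicle pair, 350.2 to 671.2 in the PLX5622 pair, 387.3 to 431.5 in the WT pair and 392.7 to 423.6 in the KO pair. The log2 fold change there was 0.48 (SE 0.15, adjusted p = 0.144), beside 0.38 (SE 0.12, adjusted p = 0.233) in DG-like and 0.40 (SE 0.12, adjusted p = 0.289) in INH-like nuclei. In astrocyte-like nuclei the log2 ratios of RSD to control for Unc13a were 0.46, 1.08, -0.11 and -0.09. These are the Vehicle, PLX5622, WT and KO pairs in order, so the split between experiments was present there too.

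Syt7 had the same pattern. In CA1-like nuclei its level was 256.0 CPM in Control-Vehicle and 451.6 in RSD-Vehicle, 184.6 and 401.8 with PLX5622, 244.1 and 270.0 in WT, and 254.2 and 276.3 in KO pools. The log2 fold change was 0.51 (SE 0.16, adjusted p = 0.135). In DG-like nuclei, where Syt7 is most abundant, the Vehicle pair was at 629.6 and 885.7 CPM and the PLX5622 pair at 383.6 and 789.6, while the WT pair was at 479.7 and 551.0 and the KO pair at 548.8 and 530.1. Bsn, the large scaffold protein Bassoon, had 535.2 and 639.2 CPM in DG-like nuclei from the Vehicle pair, 617.8 and 705.2 in the PLX5622 pair, 417.5 and 535.9 in the WT pair, and 408.8 and 513.8 in the KO pair, a log2 fold change of 0.26 (SE 0.11, adjusted p = 0.353). Unlike Unc13a and Syt7, Bsn differed in DG-like nuclei by at least as much in the genotype pairs as in the diet pairs.

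Syn2 (synapsin II, which tethers reserve vesicles) lay in the other direction. Its CA1-like level was 499.9 CPM in Control-Vehicle against 289.4 in RSD-Vehicle, 494.8 against 240.9 with PLX5622, 427.6 against 424.1 in WT and 492.8 against 411.3 in KO pools. The log2 fold change was -0.54 (SE 0.16, adjusted p = 0.126), and it was -0.36 (SE 0.11, adjusted p = 0.241) in DG-like and -0.44 (SE 0.14, adjusted p = 0.144) in CA2/3-like nuclei. INH-like nuclei gave -0.12 (adjusted p = 0.797). Snap25, the SNARE protein of the presynaptic membrane, was at 430.0 and 283.1 CPM in CA1-like nuclei of the Vehicle pair, 397.6 and 301.1 of the PLX5622 pair, 364.5 and 325.4 of the WT pair, and 377.7 and 322.6 of the KO pair (log2 fold change -0.37, SE 0.13, adjusted p = 0.176). All 4 RSD pools of Snap25 were below all 4 control pools in CA1-like nuclei. Stxbp5 (tomosyn, which occupies SNARE proteins and restrains fusion), Cadps2 and Syt17 also had negative log2 fold changes in CA1-like nuclei, of -0.42, -0.45 and -0.45 (adjusted p = 0.14, 0.152 and 0.183). Ppfia2 was at -0.20 in DG-like, -0.19 in CA1-like, -0.37 in CA2/3-like and -0.31 in INH-like nuclei, with adjusted p from 0.184 to 0.529. Syt9 (-0.71 in CA1-like and -0.86 in CA2/3-like nuclei) is set by few UMIs and changed sign between experiments.

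Sv2b in INH-like nuclei had the smallest unadjusted p of any member under RSD (0.000346, log2 fold change -0.69, SE 0.16, adjusted p = 0.17). Its levels were 136.3 and 106.9 CPM in the Vehicle pair, 178.6 and 90.3 in the PLX5622 pair, 91.6 and 82.6 in the WT pair, and 172.3 and 72.1 in the KO pair. Astrocyte-like nuclei, which held more of it, had log2 ratios of -0.51, -0.57, -0.20 and -1.08 in the same pairs, beside -0.35, -0.98, -0.15 and -1.26 in INH-like nuclei. Sv2b was thus lower in the RSD pool of every pair in both kinds of nuclei, with the wider ratios of the PLX5622 and KO pairs in INH-like nuclei.

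**Figure D3:**
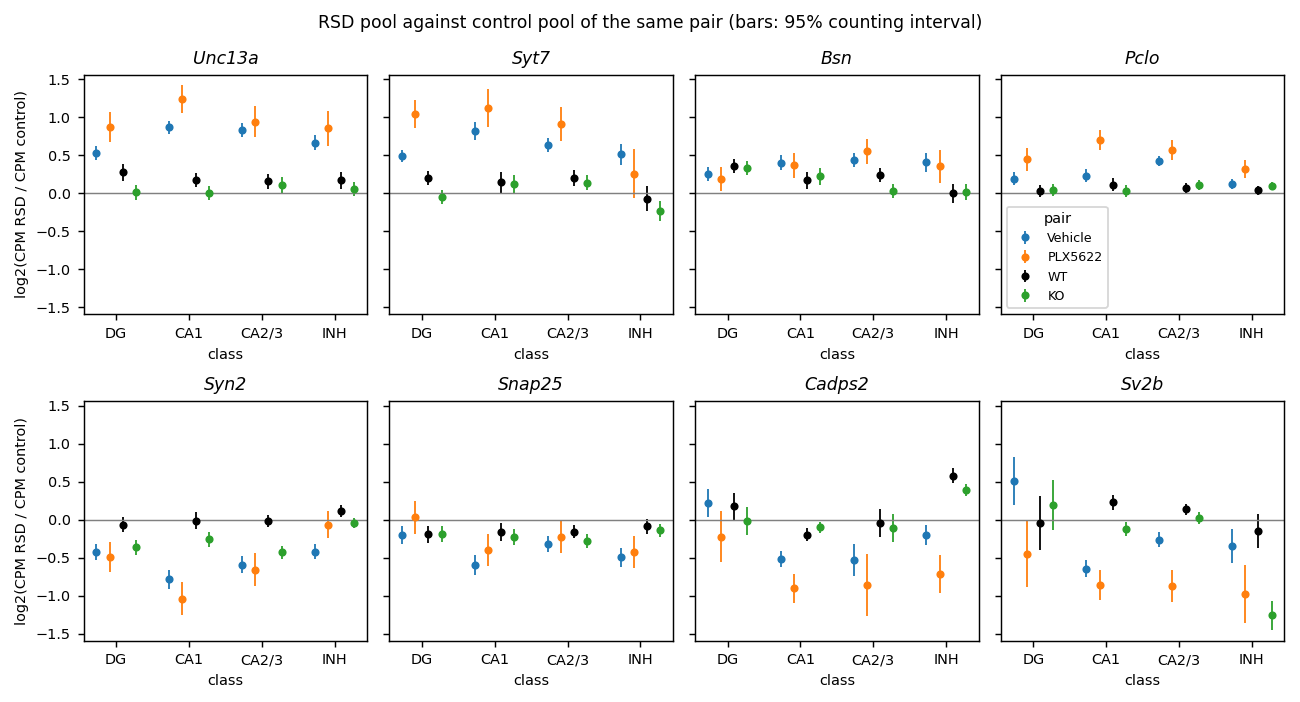
log2 ratio of the RSD pool to the control pool of each pair (points, with bars for the 95% counting interval, which leaves out the spread between mice) for 8 members in the 4 neuron classes. Unc13a and Syt7 in CA1-like nuclei lie between 0.82 and 1.24 in the Vehicle and PLX5622 pairs and between 0.01 and 0.18 in the WT and KO pairs, and Syn2 is the mirror image for the diet pairs.

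The values above differ between experiments, so RSD was also fitted in each experiment alone, which leaves 1 residual degree of freedom and depends on the spread that edgeR borrows from other genes. In the diet experiment 1 member passed in DG-like, 10 in CA1-like, 10 in CA2/3-like and 3 in INH-like nuclei, where 2.09%, 10.8%, 11.2% and 2.58% of all genes did. In CA1-like nuclei Syt7, Syt3 and Unc13a rose and Syn2, Cadps2, Stxbp5, Snap25, Sv2b, Syt17 and Syt9 fell. In the genotype experiment 1, 0, 1 and 3 members passed, beside 0.764%, 0.814%, 1.18% and 1.69% of all genes, and in CA1-like nuclei the smallest adjusted p was 0.0627, for Unc13c. Unc13a in CA1-like nuclei had a log2 fold change of 0.98 (SE 0.21, adjusted p = 0.00121) in the diet and 0.08 (SE 0.10, adjusted p = 0.887) in the genotype experiment, and Syn2 had -0.98 (adjusted p = 0.000699) and -0.15. The genotype experiment alone called Bsn higher in DG-like nuclei (0.36, adjusted p = 0.0129), Stxbp5l (a second tomosyn) lower in CA2/3-like nuclei (-0.38), and Cadps2 (0.49, adjusted p = 0.00171) and Syt6 higher and Sv2b lower (-0.73, adjusted p = 3.06e-06) in INH-like nuclei.

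The difference between the experiments was then tested itself, a comparison added after these values were seen. Unc13a in CA1-like nuclei passed, with an RSD effect 0.91 higher on the log2 scale in the diet than in the genotype experiment (SE 0.21, adjusted p = 0.0259). With edgeR no other member passed, where 0.0512%, 0.857%, 0.397% and 0% of all genes did in DG-, CA1-, CA2/3- and INH-like nuclei, and at an unadjusted p under 0.05 there were 4, 10, 10 and 9 members beside 8.11%, 13.8%, 13.4% and 9.09% of all genes. Next in CA1-like nuclei were Sv2b (-0.83, adjusted p = 0.0509), Syt9 (-1.80, adjusted p = 0.0565), Syt7 (0.79, adjusted p = 0.0576) and Syn2 (-0.80, adjusted p = 0.0576). DESeq2 called Unc13a, Syn2, Syt7 and Sv2b in CA1-like nuclei and Cadps2 in INH-like nuclei. The edgeR call for Unc13a was lost when any of the 4 genotype pools was left out (adjusted p of 0.315 to 0.606, log2 difference 0.85 to 1.00), and held without any single diet pool. CA1-like nuclei of the diet experiment were shallower, with median UMIs of 528 to 2639.5 per pool against 3040 to 4786, and with nuclei of at least 1000 UMIs alone the difference was 0.82 (adjusted p = 0.00641). Within the largest CA1-like cluster, which is not the shallow one, it was 0.72 (adjusted p = 0.00863, edgeR). That cluster held 15.5% of CA1-like nuclei in Control-PLX5622 and 8.64% in RSD-PLX5622. Its share was 50.2% in Control-Vehicle, 30.8% in RSD-Vehicle and 72.1% to 78.9% in the genotype pools. DG and inhibitory markers in CA1-like nuclei were at 201 to 385 CPM in the diet and 188 to 221 in the genotype pools. CA1 and CA2/3 markers together were at 1157 to 1385 CPM in the diet and 1225.5 to 1425 in the genotype pools. CA1 markers alone were at 642 to 846 and 808 to 1026 CPM. The part of markers of other classes was not tested. The experiments differ in mouse source, chow and depth together, and these cannot be told apart.

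In INH-like nuclei the experiments pointed opposite ways for Cadps2. Its level was 361.7 and 314.5 CPM in the Vehicle pair and 378.3 and 229.9 in the PLX5622 pair, but 337.5 and 504.5 in the WT pair and 406.6 and 532.8 in the KO pair. The difference of the RSD effect was -0.97 (SE 0.20, adjusted p = 0.0779, edgeR), which did not pass, while DESeq2 called it (-0.99), as did edgeR with library totals in place of TMM or with no filter on low counts. Within the Adarb2 lineage, which holds most of the Cadps2, both genotype RSD pools were at 1413 and 1495 CPM, above the 6 others at 601 to 988. Syt6, the other Adarb2-lineage member, was at 276.8 and 230.3 CPM in RSD-WT and RSD-KO against 149.9 and 138.8 in their controls, and at 155.6 and 193.4 against 214.2 and 186.6 in the diet experiment (log2 difference -1.31 over all INH-like nuclei, SE 0.24, adjusted p = 0.0572).

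The RSD fold change of a gene went with its base composition, as a description across genes. Over the 43 or 44 members tested, the GC content of the gene body and the RSD log2 fold change had a Spearman rho of 0.58, 0.60, 0.62 and 0.59 in DG-, CA1-, CA2/3- and INH-like nuclei, and over all genes 0.41, 0.46, 0.48 and 0.33. In the diet experiment alone the members gave 0.60, 0.66, 0.59 and 0.61, and in the genotype experiment 0.21, 0.23, 0.48 and 0.14. Genes within a pool share its library and depth and are not replicates. The gene bodies of Unc13a and Syt7 hold 54.1% and 53.3% GC, those of Syn2, Cadps2 and Snap25 41.9%, 39.7% and 40.4%. Pclo, on the higher side in every pair and class, has 37.0%, among the lowest of the members, and Syt17, lower in CA1-like nuclei, has 47.4%. For gene length rho was -0.28 to -0.53 over the members and -0.21 to -0.32 over all genes in all pools, and 0.03, -0.07, -0.34 and -0.04 over the members in the genotype experiment. The part of GC content or length in the differences of single members was not tested.

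**Figure D4:**
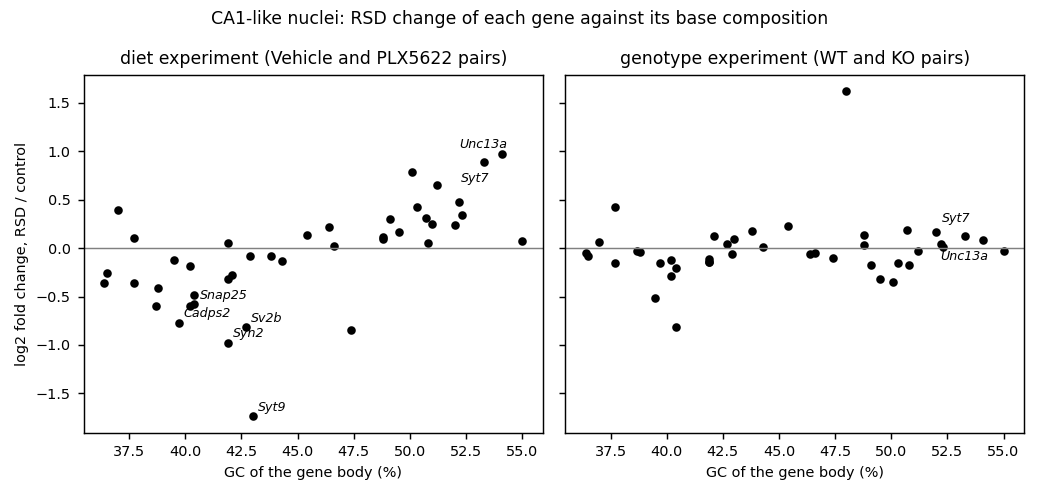
RSD log2 fold change of each tested member (black points) in CA1-like nuclei (y) against the GC content of its gene body in percent (x). The diet and the genotype experiment are shown apart. Members rise with GC in the diet experiment (rho 0.66 over 42 members) and less so in the genotype experiment (rho 0.23 over 42).

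PLX5622 against vehicle, averaged over control and RSD pools, asked whether loss of microglia changed the module. No member passed in any class (edgeR and DESeq2), where 0.0597%, 0%, 0.0169% and 0% of all genes did in DG-, CA1-, CA2/3- and INH-like nuclei. At an unadjusted p under 0.05 there were 5, 5, 4 and 3 members, beside 8.12%, 5.03%, 4.7% and 5.15% of all genes. Cplx2, a complexin that holds primed vesicles, was on the higher side in all 3 excitatory classes (log2 fold change 0.56 in DG-like, 0.46 in CA1-like and 0.51 in CA2/3-like nuclei, adjusted p of 0.326 to 0.998). In DG-like nuclei it was at 381.2 and 381.7 CPM in the PLX5622 pools, and at 236.9 and 301.2 in the Vehicle pools. Sv2b in DG-like nuclei had 0.89 (SE 0.22, adjusted p = 0.233), from 96.8 and 70.9 CPM in the PLX5622 pools against 39.1 and 55.5 in the Vehicle pools, beside 196 CPM in astrocyte-like nuclei. Syt9 in DG-like nuclei had 2.32 (SE 0.64, adjusted p = 0.274), and this rests on 19 UMIs in the Control-PLX5622 pool (22.7 CPM), where the other 7 pools were at 1.97 to 6.8 CPM. Without the RSD-PLX5622 pool, which leaves Control-PLX5622 as the only PLX5622 pool, the log2 fold change in DG-like nuclei was 3.54 for Syt9 and 1.285 for Sv2b. Sv2c in INH-like nuclei was at 21.2 and 18.3 CPM with PLX5622 and 48.5 and 33.1 with vehicle (-1.03, SE 0.30, adjusted p = 0.761). DG and inhibitory markers were also highest in the PLX5622 pools among CA1-like nuclei, at 353 and 385 CPM in a range of 188 to 385. Their part in these values was not tested.

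KO against WT asked whether loss of neuronal IL-1R1 changed the module at rest and after RSD together. No member passed (edgeR and DESeq2), with 0.00853%, 0%, 0% and 0% of all genes passing, and 0, 1, 0 and 3 members had an unadjusted p under 0.05, beside 1.98%, 1.52%, 1.6% and 2.47% of all genes. The 4 were Unc13c in CA1-like nuclei (0.59, SE 0.26) and Unc13c (-0.43), Syt2 (-0.38) and Sv2c (-0.45) in INH-like nuclei, all with an adjusted p of 0.9999. For the 3 genes that carry release at most synapses, Syt1 in DG-like nuclei was at 2582.8 and 2485.8 CPM in the WT and 2356.8 and 2464.1 in the KO pools, Snap25 at 404.7 and 354.4 against 432.4 and 377.9, and Unc13a at 346.4 and 419.3 against 395.1 and 398.7. WT and KO pools overlapped for Snap25 and Unc13a.

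Whether the RSD effect depended on neuronal IL-1R1 was tested as the effect in the KO pair against the other 3 pairs. These include both pairs of the diet experiment, so the term mixes genotype with experiment. A difference of the RSD effect between experiments also widens the spread behind the test. A lack of calls therefore does not settle whether the effect depended on IL-1R1. No member passed with edgeR or DESeq2, and neither did any gene in any class (0%, 0%, 0% and 0%), while 1, 1, 1 and 2 members had an unadjusted p under 0.05, beside 4.32%, 3.04%, 2.48% and 5.16% of all genes. These were Syt9 in DG- and CA2/3-like nuclei (2.19 and 1.79), Syt3 in CA1-like nuclei (-0.90), and Sv2b (-0.81, SE 0.29, adjusted p = 0.789) and Doc2b (-1.16) in INH-like nuclei. Sv2b in INH-like nuclei passed when only Control-PLX5622 or only RSD-PLX5622 was left out (-1.02 in each). Either of these fits drops the PLX5622 pair from the RSD effect, so they are nearly the same fit. Sv2b did not pass with both PLX5622 pools left out. In astrocyte-like nuclei Sv2b was also lower in RSD-KO, as described above (log2 ratio -1.08). In CA1-like nuclei the log2 ratio of RSD to control for Unc13a was 0.17 in the WT and 0.01 in the KO pair, and that for Syn2 was -0.01 in the WT and -0.26 in the KO pair, so the WT pair itself differed little.

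The RSD effect under PLX5622 was compared with the other 3 pairs in the same way. No member passed with edgeR or DESeq2, where 0.742%, 1.31%, 0.388% and 0.00769% of all genes did, and 9, 11, 7 and 5 members had an unadjusted p under 0.05, beside 13.3%, 13.3%, 12.3% and 8.18% of all genes. The smallest adjusted p were those of Syt9 in DG-like nuclei (-2.81, adjusted p = 0.0918), Rims1 (a RIM scaffold protein) in DG-like nuclei (-0.62, adjusted p = 0.102), and Sv2b in CA2/3-like (-0.92, adjusted p = 0.116), Unc13a in CA1-like (0.79, adjusted p = 0.117) and Syt7 in DG-like nuclei (0.69, adjusted p = 0.118). Rims1 in DG-like nuclei was at 1528.5 CPM in Control-PLX5622 and 1018.5 in RSD-PLX5622, beside 1398.0 and 1169.1 in the Vehicle pair, 1428.4 and 1413.7 in the WT pair and 1466.7 and 1445.9 in the KO pair. This comparison sets the PLX5622 pair against pairs of both experiments. Leaving out either Vehicle pool left the genotype pairs alone on the other side, and more members then passed. The share of all genes passing in that setting is not given, so this does not set members apart from other genes.

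**Figure D5:**
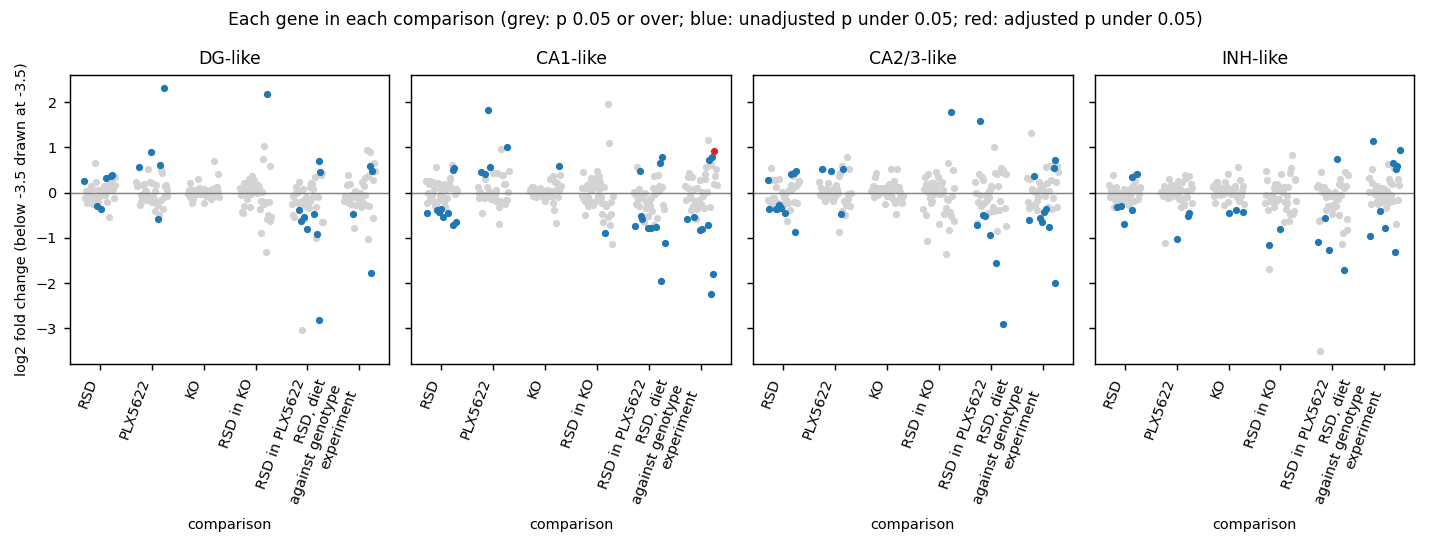
log2 fold change of every tested member (points) in each comparison (x) for each of the 4 neuron classes, in grey where the unadjusted p is 0.05 or over, in blue where it is under 0.05 and in red where the adjusted p is under 0.05. Values below -3.5 are drawn at -3.5. The only red point is Unc13a in CA1-like nuclei, at 0.91 in the comparison of the diet with the genotype experiment.

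Other genes of exocytosis (56 listed) and of vesicle endocytosis (28 listed) were followed beside the module, and 83 of the 84 were matched. Of the 46 to 49 exocytosis genes tested per class, Sncb (beta-synuclein, a presynaptic protein) was called in 1 comparison, with an RSD effect in CA1-like nuclei 1.22 higher in the diet than in the genotype experiment (SE 0.30, adjusted p = 0.042). Its level was 34.7 CPM in Control-Vehicle and 74.5 in RSD-Vehicle, 26.5 and 64.2 with PLX5622, 26.2 and 32.4 in WT and 37.6 and 27.8 in KO pools, so that it was higher in RSD in 3 pairs and lower in the KO pair. Of the 28 endocytosis genes, Dnajc6 (auxilin, which uncoats clathrin vesicles) was called for the RSD effect under PLX5622 against the other pairs, in DG-like (-0.85, SE 0.20, adjusted p = 0.0397) and CA1-like nuclei (-1.19, SE 0.26, adjusted p = 0.00555). In CA1-like nuclei it was at 491.8 CPM in Control-PLX5622 and at 235.9 to 303.2 in the other 7 pools, so the call rests on that pool. No other gene of these lists was called in any of the 6 comparisons.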

How the data were processed

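Nuclei of hippocampus were barcoded by split-pool rounds (Parse Biosciences) and read as 4 sublibraries, each with nuclei of all 8 pools. Per the labels, reads were aligned to mm39, and Seurat 4.1.1 is named in the submitters' processing notes. The authors deposited counts of unique transcripts per nucleus and gene, whole numbers with no scaling. The release of their gene annotation is not given in the sources used here. Each nucleus took its pool from the condition code of its file, and the codes are named in the labels' treatment text.

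Nuclei over 20% mitochondrial counts were left out, and no doublets were removed (leaving out the top 5% of nuclei by UMIs was an alternative). No barcode was shared between pools. Leiden clusters (resolution 1.0, and 1.0 again among neuronal nuclei) were made on 30 principal components of 2000 variable genes after log normalization (scanpy 1.11.5, Python 3.11.15). For a cluster to take a class, at least 3 of the class's markers had to be detected. Its score had to be at least 0.4 and at least 1.25 times the second. Markers among the 10 top genes of the cluster were also looked at. Clusters of 2093, 746 and 629 nuclei had CA1 scores of 0.444, 0.44 and 0.414, past these limits, and stayed unnamed. Counts were summed per class and pool. Tests used edgeR 4.0.16 (R 4.3.3, TMM, filterByExpr, quasi-likelihood), with the pair as a block and 3 residual degrees of freedom (2 for interactions, 1 for a single experiment). P-values were adjusted by Benjamini-Hochberg over all genes of a class at a threshold of 0.05. DESeq2 1.42.0 was an alternative. Each pool is 1 mixture of 3 mice, and no condition had a replicate pool. The spread behind the p-values is therefore how far the RSD effect differed between pairs, not a spread between replicates. An RSD effect that depends on diet or genotype widens this spread in the main RSD test. The pairing comes from the design, as both pools had the same diet or genotype, and their deviations from the group means correlated at 0.0721 to 0.255, over 0.1 in 15 of 16 cases. Normalization factors were 0.958 to 1.06. The fits were also run on simulated counts with known changes. The simulation had the same dispersion for all genes and no other differences between pairs, so it does not show how the fits perform on these data. Counting intervals (95%) cover counting error only.

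Members named by rule were those with a highest class median at least 4 times the lowest and at least 20 CPM, with Syt1, Snap25 and Unc13a always given, and companion genes past the threshold. The members, lists and rules were chosen with earlier results of these data known. Gene positions, GC content and windows come from GRCm39 with GENCODE vM39, in which 56017 of 56748 gene identifiers were found. In the bulk sums of a class, fewer transcripts per nucleus and a changed mix of subtypes cannot be told apart.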

Additional observations from a re-analysis of the deposited data

Results flagged for a closer look

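Among the 88 groups of 4 pools formed by 11 genes, 4 classes and the control or RSD condition, 6 held a pool that stood apart from the other 3. Chance alone would give about 1 in 20 for independent groups of like pools. These groups share the same 8 pools, mix diets and genotypes, and hold genes chosen after their values were seen. That rate is therefore only a guide. The Control-PLX5622 pool, the shallowest by median UMIs, was that pool in 5 of the 6. It was low for Syt7 in CA1-like nuclei (184.6 CPM, where the other control pools were at 244.1 to 256.0) and for Unc13a in CA1-like nuclei (346.5 CPM against 453.2 to 469.4). It was high for Cadps2 in DG-like nuclei (157.7 CPM against 125.2 to 130.2), for Ppfia2 in CA1-like nuclei (1122 CPM against 772.6 to 812.8) and for Sv2b in DG-like nuclei (96.8 CPM against 34.9 to 39.1). For Syn2 in CA1-like nuclei the Control-WT pool was low, at 427.6 CPM against 492.8 to 499.9. The RSD effect on Unc13a in CA1-like nuclei differed between the diet and the genotype experiment by 0.912 on the log2 scale (adjusted p = 0.0259, edgeR).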

How the results depend on the processing

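Of the alternative values of single genes, 902 were classed as the same, while 84 came to pass the threshold, 4 no longer passed it and 4 were classed as reversed. A value classed as the same stayed on its side of the threshold but could change sign. For RSD, Cadps2 in INH-like nuclei had a log2 fold change of 0.035 in the main fit and -0.272 with only the largest cluster. With the genotype experiment alone Syt9 had an RSD log2 fold change of 0.095 in CA1-like and 0.038 in CA2/3-like nuclei, and Sv2b one of 0.042 in CA1-like nuclei, each negative over all pools. With only the largest cluster of each class Syt9 in CA1-like nuclei was at 0.422. For RSD, where 0 member calls passed over the 4 classes, DESeq2 gave 1, no filter on low counts 5, the diet experiment alone 24 and the genotype experiment alone 5, and leaving out each pool in turn gave 0 to 6 (6 without Control-WT, 5 without RSD-WT). For PLX5622 against vehicle (0), no filter gave 1, the diet experiment alone 2, and leaving out a pool 0 to 3. For the RSD effect in KO (0), leaving out a pool gave 0 to 1. For the RSD effect under PLX5622 (0), library totals in place of TMM gave 2, no filter 4, and leaving out a pool 0 to 25, the 25 without either Vehicle pool. For the diet against the genotype experiment (1), DESeq2 gave 5, library totals 3, no filter 8, nuclei of at least 1000 UMIs 4, and leaving out a pool 0 to 25, with 0 without either WT pool and 25 without either Vehicle pool. The cause of these shifts was not tested. Shares of all genes passing are given above for the main fits and for RSD in each experiment alone, and not for the other settings. The member counts in those settings therefore do not set members apart from other genes. Without the replicate block, RSD, PLX5622 and KO each gave 0 member calls, as with it. The number of members with class-dependent levels was 19 with nuclei of at least 1000 UMIs or the largest cluster of each class, and 20 without the top 5% of nuclei by UMIs. A CA1-like class with a neighbouring cluster added, chosen after seeing the data, gave 0 calls in the 5 planned comparisons. Depth limits the PLX5622 pools most.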

Other observations

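A few members were highest outside the 4 main neuron classes. Unc13b was at a median of 388 CPM in endothelial-like nuclei (176 to 452 over 7 pools, 481 UMIs), above the 291 CPM of its highest neuron class. Syt11, which does not bind calcium, was at a median of 132 CPM in oligodendrocyte-like nuclei and at 56.7 to 74.9 in every neuron class. Unc13c was at a median of 186 CPM in oligodendrocyte precursor-like nuclei and 216 in endothelial-like nuclei, against 15.4 to 43.6 in the 4 main neuron classes. Among interneurons, the Egfr-led subset held more Rims1 (1999 to 2825 CPM, median 2211) than the Lhx6 lineage (median 1121) or the Adarb2 lineage (median 1299), with no overlap between its pools and those of the other subsets. These levels are descriptions of clusters and were not tested.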
